A study of Mus musculus with 6 samples.

Results

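Ciart encodes a repressor of the circadian clock that binds the activator BMAL1 and opposes its action. It was described here together with 9 other genes of the clock, Per1, Per2, Per3, Cry1, Cry2, Nr1d1, Nr1d2, Dbp and Arntl, to ask whether Ciart moved with the rest of the clock. The genes were listed by name, and the list was selected on 1 measured value, the difference of Ciart between the groups compared below. Its own difference is therefore given as a description without a test. The others were listed by what they do, though with earlier results of these data known. Of the 10 listed genes, 9 were found by symbol among the 17068 genes of the count table, and the level of Per3 was not analysed here. The study sequenced RNA from the lateral cortex of 6 female mouse embryos of the strain c57/bl6 at E12.5 (embryonic day 12.5). The 4 controls were Cre negative, with the genotype Foxp1 fl/+ in controls 1, 2 and 4 and Foxp1 fl/fl in control 3. The 2 mutants were Foxp1 fl/fl;Emx1Cre and are labelled Foxp1cKO. All embryos thus carried at least 1 floxed Foxp1 allele. Emx1Cre recombines in the dorsal telencephalic lineage, so vessels, blood and ventral cells in the dissected tissue are outside the deletion.

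The mammalian clock is a feedback loop of transcription. BMAL1, encoded by Arntl, pairs with CLOCK or NPAS2 and activates genes through E-boxes in their promoters. Among these genes are the Per and Cry repressors, which shut the loop, Ciart, and the nuclear receptors Nr1d1 and Nr1d2 (REV-ERB alpha and beta), which in turn repress Arntl where ROR receptors activate it. Dbp, Tef and Hlf are activators of the clock's output that bind D-boxes. In adult tissues the RNAs of Dbp, Nr1d1, Per and Ciart rise and fall across the day, roughly opposite to Arntl, whereas clocks of embryonic tissue are known to be immature.

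The letters of the E-box stood out in the Ciart promoter, which is shown beside the promoters of Per1, Cry1 and Nr1d1. Per1 and Cry1 are the other members with an E-box in the windows searched. Nr1d1 had the largest fold among the other members outside the control range. The sequences are the 250 bases before the RefSeq start site (GRCm38.p6), read 5′ to 3′ on the strand of the gene. Capitals mark the E-box CACGTG, the E-prime box CACGTT on either strand, and in Per1 also the D-box. They lie at chr3:95882229-95882478, minus strand for Ciart, chr11:69098699-69098948, plus strand for the upstream of 2 starts of Per1, chr10:85185055-85185304, minus strand for Cry1, and chr11:98775378-98775627, minus strand for Nr1d1.
Ciart: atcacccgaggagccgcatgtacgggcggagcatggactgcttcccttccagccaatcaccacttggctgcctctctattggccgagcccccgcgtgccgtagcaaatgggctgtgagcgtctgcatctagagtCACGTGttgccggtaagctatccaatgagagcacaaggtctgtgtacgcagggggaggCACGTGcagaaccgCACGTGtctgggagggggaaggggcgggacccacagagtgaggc
Per1: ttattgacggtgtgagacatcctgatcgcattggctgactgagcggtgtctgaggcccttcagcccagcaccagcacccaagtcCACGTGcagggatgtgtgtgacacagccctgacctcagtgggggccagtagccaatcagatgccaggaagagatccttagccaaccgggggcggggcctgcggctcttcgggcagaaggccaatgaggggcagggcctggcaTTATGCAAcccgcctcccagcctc
Cry1: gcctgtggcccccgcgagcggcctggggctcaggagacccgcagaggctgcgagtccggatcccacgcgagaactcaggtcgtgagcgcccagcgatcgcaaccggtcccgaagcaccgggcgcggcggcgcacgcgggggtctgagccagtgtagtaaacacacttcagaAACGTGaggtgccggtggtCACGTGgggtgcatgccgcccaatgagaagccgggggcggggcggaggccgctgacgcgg
Nr1d1: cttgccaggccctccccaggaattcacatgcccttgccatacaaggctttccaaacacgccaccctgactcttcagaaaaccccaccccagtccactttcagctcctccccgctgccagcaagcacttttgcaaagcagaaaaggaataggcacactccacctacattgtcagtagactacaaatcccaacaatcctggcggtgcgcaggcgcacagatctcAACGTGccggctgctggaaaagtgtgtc

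Ciart held 3 E-boxes, whose first bases lay at -116, -58 and -44 from the start site. Per1 and Cry1 held 1 each, and Nr1d1 held only an E-prime box. Windows from 250 bases before to 50 after a start were matched for 9 of the 10 listed genes, all but Per2. An E-box was found in 3 of these 9 genes. Over all 32851 RefSeq windows of this length, 7.15% held at least 1 E-box, 0.594% at least 2 and 0.0883% at least 3. The E-prime box was in 4.68% of all windows, and in those of Cry1, Cry2 and Nr1d1. The D-box, searched as TTATGTAA or TTATGCAA on both strands, was in 1.66% of all windows and in those of Per1 and Per3. The half-site bound by ROR and REV-ERB receptors, AGGTCA, was in 16.3% of all windows and in those of Per1, Nr1d2 and the downstream start of Arntl. The core of the hypoxia response element, ACGTG or GCGTG on both strands, was in 43.8% of all windows. Among the 9 genes with windows, 8 held it in at least 1 window, all but Arntl. Since ACGTG lies inside the E-box on each strand, 6 of its 7 matches in Ciart were within the E-boxes. A match describes letters in a window and not a bound site. The lack of a match says nothing of sequence outside the windows, which was not searched.

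**Figure D1:**
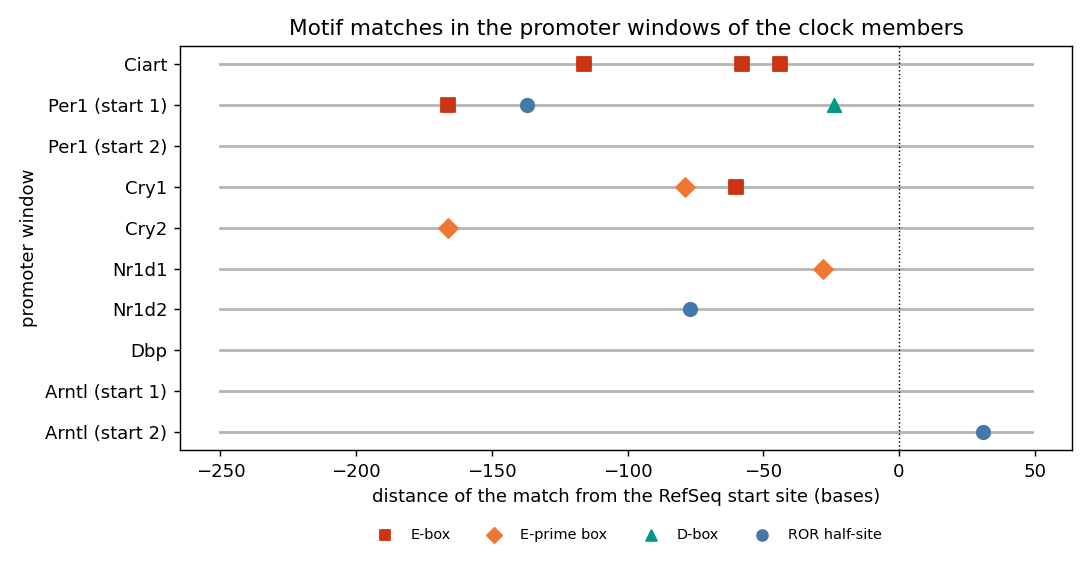
Matches to 4 motifs in the promoter windows of the members, by the distance of the first base of each match from the RefSeq start site in bases. Ciart shows 3 E-boxes, Per1 and Cry1 show 1 each, and the other windows show none.

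Libraries held between 50076008 and 78346979 counts, and the gene check of the labels did not separate the groups. Foxp1 had 59.7 to 79.1 CPM (counts per 1000000 counts of a library, after TMM normalization) in the controls and 83.2 and 76.8 CPM in the libraries labelled Foxp1cKO. Reads of the floxed exons are not counted apart from those of the other exons, and each direction below rests on the labels. All 9 measured markers of cortical identity were detected in each library, with summed levels of 1772 to 2353 CPM in the controls and 1895 to 1994 CPM in the libraries labelled Foxp1cKO. Sums of red cell markers were 1099.5 to 1451 CPM in controls 1 to 3, 3544 CPM in control 4, and 3849 and 4143 CPM in the libraries labelled Foxp1cKO. Control 4 was therefore close to the mutants in this sum. Mural cell markers summed to 202 to 246 CPM in the controls and to 302 and 310 CPM in the libraries labelled Foxp1cKO, with 4 of 8 markers above the control range. Red cell markers were above the control range in 4 of 9. The endothelial sum was 150.2 to 229.7 CPM in the controls and 208 and 256 CPM in the libraries labelled Foxp1cKO, with 2 of 10 markers above the control range and 1 of them, the VEGF receptor gene Flt1, called by edgeR. The microglial sum overlapped, with 2 of 9 markers above the control range. The mesenchymal and ventral telencephalic sums overlapped with 0 markers outside the control range, and control 3 was highest in the ventral sum, at 791 CPM. Beside these counts, 11.5% of all genes had both mutants above the control range and 13.1% below it. The share of all genes called by edgeR was 0.152%. Genes of each list were above 0 in every library, and the part of these cells in the results below was not tested. In bulk tissue, fewer cells of a type and less RNA per cell cannot be told apart. The study describes the controls as littermates of mutants, but the labels do not say which embryos shared a litter, nor the hour of dissection, and the part of either was not tested.

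Ciart (ENSMUSG00000038550.10, GRCm38 chromosome 3, 95878503 to 95882251, minus strand) was 5.12-fold higher in the libraries labelled Foxp1cKO. It had 2.29, 3.03, 2.14 and 2.26 CPM in controls 1 to 4, and 9.10 and 15.8 CPM in the libraries labelled Foxp1cKO 1 and 2. Both mutant libraries were thus far above every control, and they also differed from each other by 1.73-fold. The values rest on 142 to 188 counts per control and on 458 and 1197 counts in the mutants, so counting error is small beside these gaps. Control 3, which is homozygous for the floxed allele without Cre, had the lowest value. The means were 2.43 ± 0.403 CPM (SD, n = 4) and 12.4 ± 4.72 CPM (SD, n = 2), and the log2 fold change was 2.36 (standard error 0.253). Against control 4, the control with most red cell RNA, Ciart was 4.03-fold and 6.98-fold higher. Control 4 is a single library, and the part of red cells in this difference was not tested. Leaving out single libraries gave log2 fold changes from 1.89, without Foxp1cKO 2, to 2.70, without Foxp1cKO 1.

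Among the other 8 members measured, none passed the threshold of 0.05 on the adjusted p-value in edgeR's quasi-likelihood test over all genes, against 0.152% of all genes tested (26 genes, all higher). Without adjustment 2 of the 8, Nr1d1 and Dbp, had p under 0.05, beside 13% of all genes. DESeq2 and limma also called 0 of them. Their log2 fold changes ran from 0.0055 to 0.68 with a median of 0.19, where the median of all genes was -0.0044. Each of the 8 had a positive value, as had 49.3% of all genes. Both mutant libraries were above every control in 2 of the 8, Nr1d1 and Cry1, and below every control in 0. Over all genes these shares were 11.5% above and 13.1% below.

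**Figure D2:**
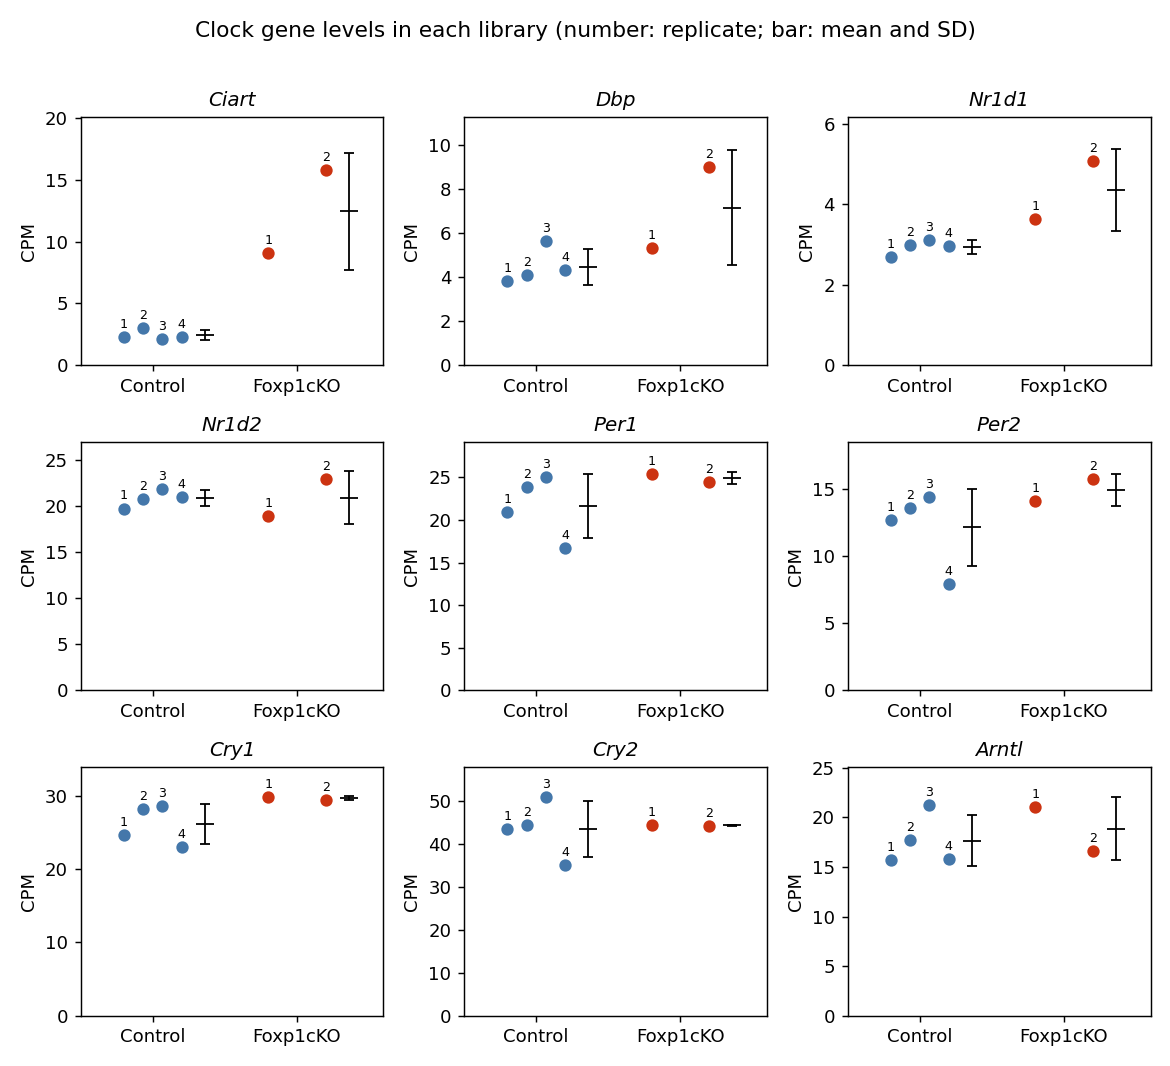
CPM of the 9 measured members in each library, with the replicate number above each point and the mean and SD of each group as a bar. Ciart is between 2.14 and 3.03 CPM in the controls and at 9.10 and 15.8 CPM in the libraries labelled Foxp1cKO, while the groups lie close or overlap for the other members.

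Nr1d1 and Dbp had the largest differences after Ciart. Nr1d1, the REV-ERB alpha receptor (ENSMUSG00000020889.11, chromosome 11, 98767932 to 98775333), was at 2.70, 2.99, 3.11 and 2.97 CPM in the controls in order. In the libraries labelled Foxp1cKO 1 and 2 it had 3.64 and 5.08 CPM. The mutants were both above the narrow control range. Its log2 fold change was 0.57 (SE 0.198, edgeR adjusted p = 0.326). The change fell to 0.29 without Foxp1cKO 2. Dbp, the D-box activator (ENSMUSG00000059824.12, chromosome 7, 45705088 to 45710203), was at 3.81, 4.09, 5.63 and 4.31 CPM in the controls in order, and at 5.31 and 8.99 CPM in the mutants. Here control 3 lay above Foxp1cKO 1, so the groups overlapped. The log2 fold change of Dbp was 0.68 (SE 0.260, edgeR adjusted p = 0.352), and 0.23 without Foxp1cKO 2. Exons of Nr1d1 share 263 bases with Thra and those of Dbp share 539 bases with Sphk2, each on the opposite strand. The strand setting of the counting is not given in the sources used here, so some reads of these pairs may not be separated.

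Nr1d2, the REV-ERB beta receptor (ENSMUSG00000021775.11, chromosome 14, 18204054 to 18239127), did not follow Nr1d1. It had 19.8 to 21.9 CPM in the controls and 18.9 and 23.0 CPM in the mutants, which enclosed the control range. Its log2 fold change was 0.0055 (SE 0.111, edgeR adjusted p = 0.988).

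The period repressors differed little between the groups. Per1 (ENSMUSG00000020893.17, chromosome 11, 69095217 to 69109960) was at 20.9, 23.9, 25.0 and 16.6 CPM in the controls in order, and at 25.4 and 24.4 CPM in the libraries labelled Foxp1cKO. Per2 (ENSMUSG00000055866.9, chromosome 1, 91415982 to 91459324) had 12.7, 13.6, 14.4 and 7.96 CPM in the controls, and 14.1 and 15.8 CPM in the mutants. Control 4 was the lowest library for both genes, and the mutants lay beside controls 1 to 3. The log2 fold changes were 0.20 for Per1 (SE 0.166, edgeR adjusted p = 0.630) and 0.30 for Per2 (SE 0.235, edgeR adjusted p = 0.615). Against control 3 alone, the mean of the mutants differed by -0.0084 for Per1 and 0.051 for Per2, and against control 4 by 0.58 and 0.90.

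The cryptochromes, which repress CLOCK and BMAL1 together with the period proteins, were per length the most abundant members. Cry1 (ENSMUSG00000020038.10, chromosome 10, 85131700 to 85185064) was at 24.6, 28.2, 28.6 and 23.0 CPM in the controls in order, and at 29.8 and 29.5 CPM in the mutants. The mutants were just above controls 2 and 3 and further above controls 1 and 4. Its log2 fold change was 0.18 (SE 0.114, edgeR adjusted p = 0.525). Cry2 (ENSMUSG00000068742.11, chromosome 2, 92403646 to 92434043) had 43.5, 44.3, 50.8 and 35.1 CPM in the controls and 44.3 and 44.2 CPM in the mutants, within the control range. Its log2 fold change was 0.027 (SE 0.140, edgeR adjusted p = 0.956), and it turned to -0.062 without control 4.

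Arntl, the gene of the activator BMAL1 (ENSMUSG00000055116.8, chromosome 7, 113207465 to 113314126), was at 15.7, 17.7, 21.2 and 15.8 CPM in the controls in order. It reached 21.1 CPM in Foxp1cKO 1 and 16.6 CPM in Foxp1cKO 2, both inside the control range. The log2 fold change was 0.096 (SE 0.166, edgeR adjusted p = 0.843), and it turned to -0.086 without Foxp1cKO 1.

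Ciart thus differed from the rest of the list in size. On the scale of log2 CPM minus the control mean, the median of the other 8 members was 0.25 and 0.19 in the libraries labelled Foxp1cKO 1 and 2, against 1.91 and 2.70 for Ciart. Ciart minus this median was 0.0084, 0.29, -0.40 and 0.071 in controls 1 to 4, and 1.66 and 2.51 in the mutants. The median of the other members was 0.23 in control 3, which is close to that of the mutants, while Ciart in control 3 was at -0.17. Control 3 and the mutants were therefore close in this median and apart in Ciart. This comparison includes the value that put Ciart on the list and carries no test.

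The 2 mutants also differed from each other, and not in the same direction for all members. Foxp1cKO 2 was 1.73-fold above Foxp1cKO 1 for Ciart, 1.69-fold for Dbp, 1.40-fold for Nr1d1 and 1.21-fold for Nr1d2. The ratio was 1.118 for Per2, 0.962 for Per1, 0.988 for Cry1 and 0.998 for Cry2. For Arntl it was 0.787. The order of the members thus ran from Ciart and Dbp at one end to Arntl at the other. These are single libraries, and the ratios have no replicate check.

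**Figure D3:**
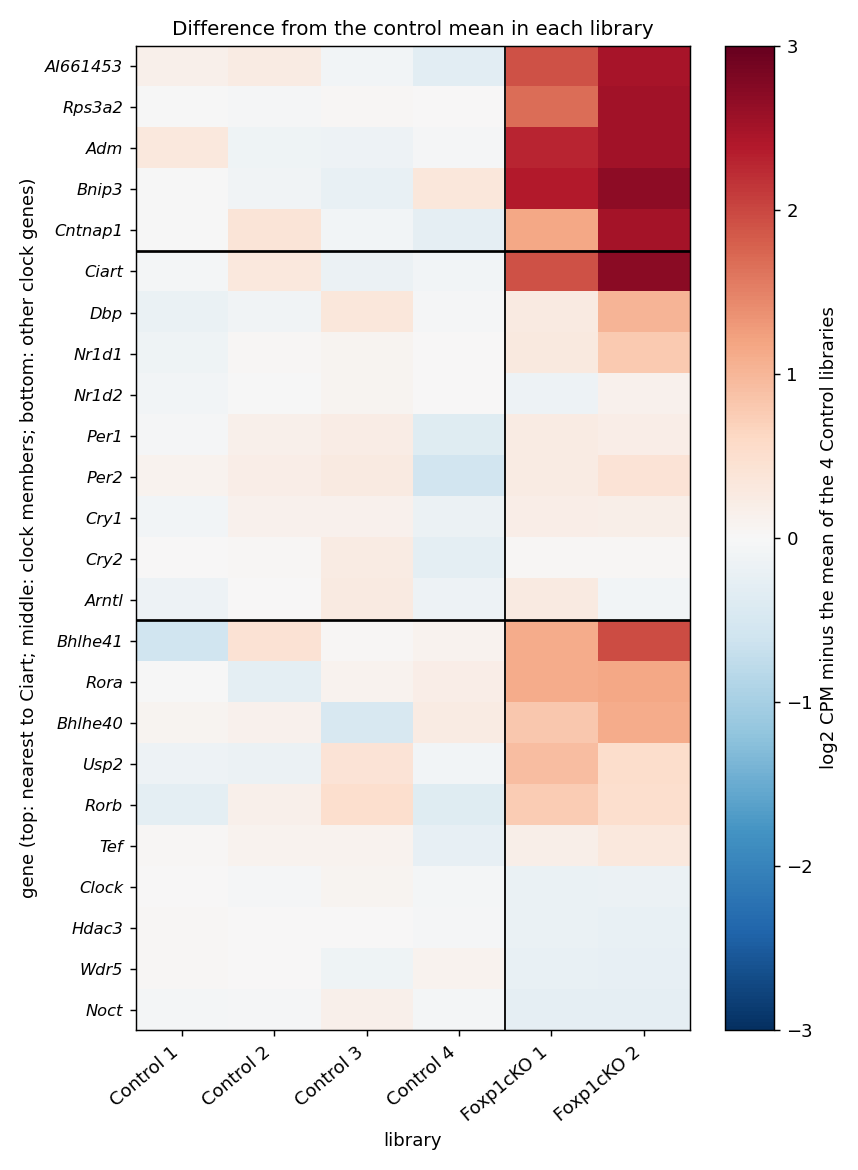
Colour gives log2 CPM minus the mean of the 4 controls for each gene (rows) in each library (columns). The rows are the 5 genes nearest to Ciart in pattern, the 9 members, and other clock genes whose mutant libraries lie outside the control range. The row of Ciart, at 1.91 and 2.70 in the mutants, looks like the rows of the 5 nearest genes, which were picked for this likeness. The other members are paler.

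Levels of different genes were compared per length, as CPM per kilobase of annotated exon. In the controls the order was Cry1 (7.81 ± 0.819), Cry2 (6.88 ± 1.02), Nr1d2 (3.86 ± 0.162), Per1 (3.84 ± 0.663), Arntl (2.34 ± 0.342), Per2 (2.08 ± 0.493), Dbp (1.49 ± 0.269), Ciart (1.07 ± 0.178) and Nr1d1 (0.957 ± 0.0574, all SD, n = 4). Ranges of neighbours in this order overlapped among the controls, except between Cry2 and Nr1d2 and between Per1 and Arntl. Ciart was at place 8 of 9 in controls 1, 2 and 4 and at place 9 in control 3. In the libraries labelled Foxp1cKO it had 4.03 and 6.98 CPM per kilobase, which put it at place 4 in Foxp1cKO 1 and at place 3 in Foxp1cKO 2, there just below Cry2. Cry1 and Cry2 held the first places in each library.

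The members were not unusually variable among the controls. The SD of log2 CPM over the 4 controls, which does not use the mutants, had a median of 0.22 over the 9 members, against 0.20 over all genes. It was largest for Per2, at 0.39 (percentile 76.8 of all genes), and for Per1, at 0.26 (percentile 61.6). Dbp was at percentile 58.4, Ciart at 54.5, Cry2 at 54.1, Arntl at 50.8 and Cry1 at 39.1. Nr1d1 (percentile 18.4) and Nr1d2 (percentile 9.44) were among the steadier genes. Control 4 was the lowest of the 6 libraries for 4 of the 8 members other than Ciart, Per1, Per2, Cry1 and Cry2. Without it the median SD over the 9 members was 0.12. The all-gene median without control 4 is not given here, so this fall cannot be called particular to the members.

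Another 34 genes of the clock were taken from lists of its activators, ROR receptors, D-box factors, repressors and their partners, kinases, ubiquitin ligases and outputs, and all 34 were in the table. None passed the threshold in edgeR over all genes (0 higher and 0 lower), where 10 of 34 had an unadjusted p under 0.05, beside 13% of all genes. DESeq2 called 3, Rora, Bhlhe40 and Bhlhe41, beside 2.97% of all genes, and limma called 0, beside 0.158%. Of the 34, 20 had a positive and 14 a negative log2 fold change, with a median of 0.067. Both mutants were above the control range in 7 and below it in 4, where the shares of all genes were 11.5% and 13.1%.

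The bHLH repressors, which bind E-boxes and compete with BMAL1 and CLOCK, had among the largest differences. Bhlhe41 (DEC2) had 0.388, 0.821, 0.617 and 0.648 CPM in controls 1 to 4, and 1.33 and 2.40 CPM in the mutants. Bhlhe40 (DEC1) had 13.5, 14.0, 9.19 and 15.3 CPM in the controls, and 22.3 and 27.6 CPM in the mutants. For both genes the groups did not overlap, and Foxp1cKO 2 was the higher mutant, as for Ciart. The log2 fold changes were 1.595 for Bhlhe41 (SE 0.359, edgeR adjusted p = 0.242) and 0.94 for Bhlhe40 (SE 0.205, edgeR adjusted p = 0.241). With DESeq2 the adjusted p-values were 0.0150 and 0.00297.

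The ROR receptors, activators of Arntl, were led by Rora. Rora had 11.7, 9.64, 12.8 and 13.7 CPM in controls 1 to 4, and 25.5 and 26.8 CPM in the mutants. The mutants were close to each other and well above each control, including control 4. Its log2 fold change was 1.13 (SE 0.150, edgeR adjusted p = 0.0659). Rora passed without control 4 (edgeR adjusted p = 0.0374), where 96 genes passed, and with DESeq2 (adjusted p = 1.26e-08), where 507 passed. No other alternative called it. The adjusted p was 0.0588 from limma, and from edgeR 0.159 with the replicate block and 0.267 without control 1. Rorb had 12.3 to 22.8 CPM in the controls and 27.0 and 22.8 CPM in the mutants. Foxp1cKO 2 and control 3 were nearly equal there, and the log2 fold change was 0.59 (SE 0.251, edgeR adjusted p = 0.382). While Rora was above the controls in both mutants, Arntl was not.

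Of the activators, Clock, the partner of BMAL1, was slightly lower. It had 72.5 to 79.4 CPM in the controls and 65.9 and 67.1 CPM in the mutants (log2 fold change -0.18, SE 0.0729, edgeR adjusted p = 0.364). Npas2 and Arntl2 overlapped between the groups, at log2 fold changes of 0.93 (SE 0.401, edgeR adjusted p = 0.391) and 0.089. Npas2 had 0.470 to 0.782 CPM in the controls, and 0.715 and 1.81 CPM in Foxp1cKO 1 and 2. Tef, a relative of Dbp, had 58.8 to 75.2 CPM in the controls and 78.2 and 86.2 CPM in the mutants (log2 fold change 0.24, SE 0.115, edgeR adjusted p = 0.431). Hlf and Nfil3 overlapped, at log2 fold changes of 0.55 and -0.046.

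Genes that act on PER and CRY proteins differed little, apart from the ligase gene Fbxl21 at a log2 fold change of 0.63 with overlapping groups. All 5 kinases overlapped between the groups, with log2 fold changes of -0.060 to 0.11, where 12868 of all 17068 genes overlapped. Of 7 partners of the repressor complexes, Hdac3 and Wdr5 lay below the control range in both mutants, at log2 fold changes of -0.21 (SE 0.0655, edgeR adjusted p = 0.292) and -0.25 (SE 0.0847, edgeR adjusted p = 0.319). The share of all genes below it was 13.1%. Of 7 output genes, Usp2, a deubiquitinase gene, had 2.75 to 4.16 CPM in the controls and 5.94 and 4.51 CPM in the mutants (log2 fold change 0.72, SE 0.238, edgeR adjusted p = 0.309). Noct, the deadenylase-like Nocturnin gene, had 23.2 to 27.0 CPM in the controls and 19.97 and 20.1 CPM in the mutants (log2 fold change -0.27, SE 0.102, edgeR adjusted p = 0.348). Wee1, another output, was not outside the control range.

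**Figure D4:**
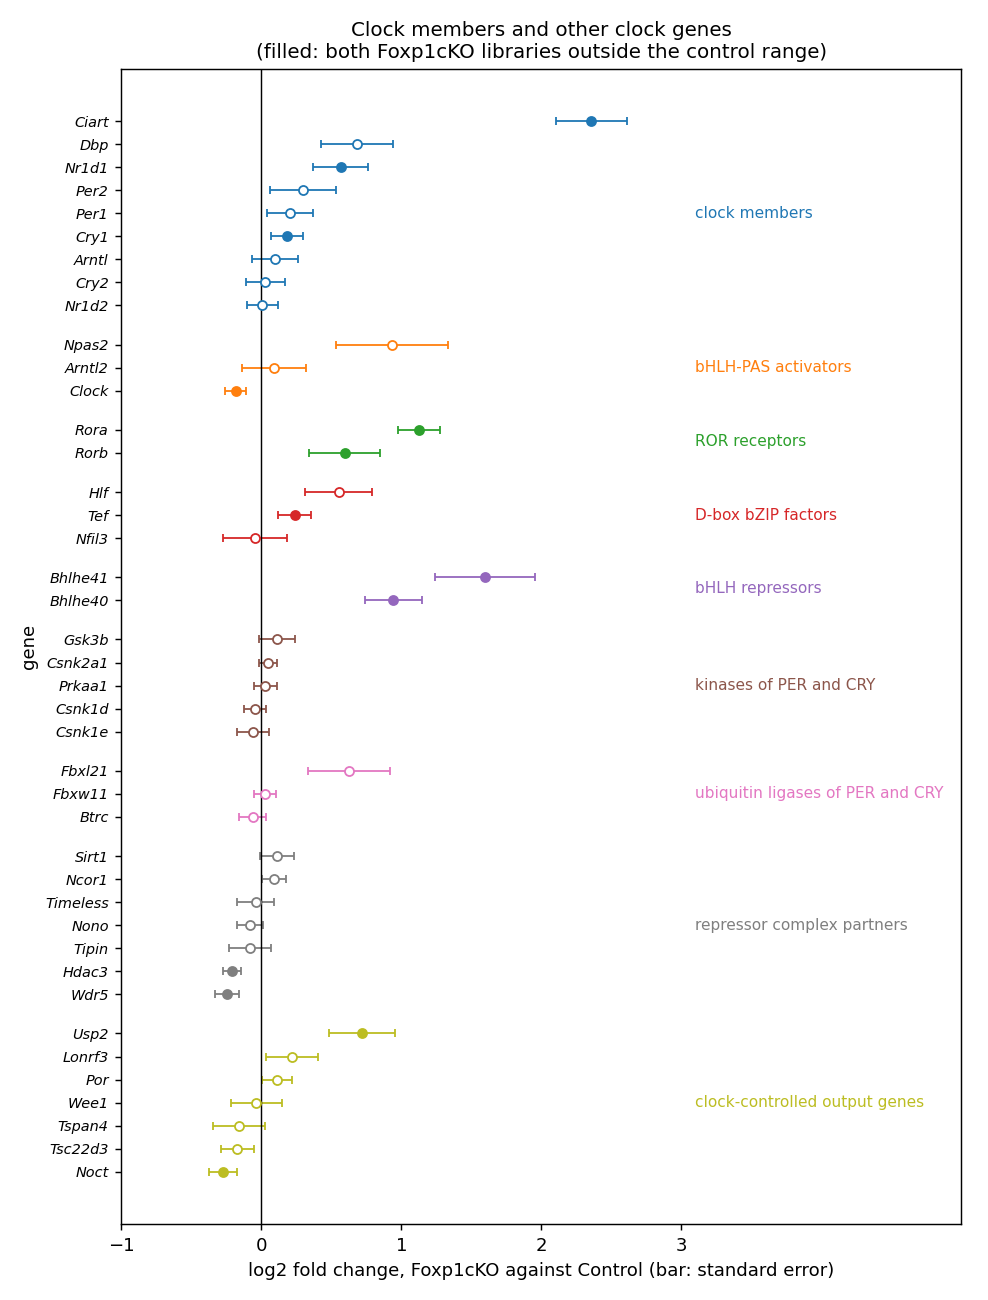
Log2 fold change of the libraries labelled Foxp1cKO against the controls for the 9 members and 32 other clock genes by role, with standard errors as bars. Filled points have both mutants outside the control range, and Ciart, at 2.36, lies beyond Bhlhe41 at 1.595 and Rora at 1.13.

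Genes were also ranked by how close their pattern was to that of Ciart. The nearest of so many genes are close by selection, so setting them beside the other members tests nothing. Likeness was the root mean square difference from Ciart over the 6 libraries, in log2 CPM minus the control mean, ranked over 13854 genes with a mean of at least 1 CPM. The 5 nearest genes were AI661453 (0.164), Rps3a2 (0.211), Adm (0.293), Bnip3 (0.321) and Cntnap1 (0.331). AI661453, at 0.521 to 0.789 CPM in the controls and 2.56 and 3.76 CPM in the mutants, reached the mean of 1 CPM only through the mutants. Adm, which encodes the vasodilator peptide adrenomedullin, had 0.974 to 1.36 CPM in the controls, and 5.38 and 6.41 CPM in the mutants. Bnip3, which encodes a mitophagy receptor, had 20.2 to 29.9 CPM in the controls, and 124 and 151 CPM in the mutants. Both were above every control, as Ciart was. Reads of Rps3a2 may be shared with near-identical ribosomal protein copies, so its value is uncertain. Among the clock genes the nearest was Bhlhe41, at place 19 with a difference of 0.508, which also reached 1 CPM only through the mutants, followed by Rora at place 71 and Bhlhe40 at place 101. Of the other members, Dbp stood at place 308 (0.997) and Nr1d1 at place 414 (1.03), and the rest lay at place 1496 or beyond. Since all 6 libraries enter this measure, it repeats the difference between the groups and is a description.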

How the data were processed

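RNA-Seq counts of 6 libraries were used, 4 Cre-negative controls and 2 labelled Foxp1cKO, grouped by their titles. The authors aligned paired-end reads from stranded libraries with STAR (mm10). Reads per gene came from HTSeq 0.9.1 in union mode, and genes with low counts were removed by the authors. The deposited counts are whole and not normalized. The deposited VST values, made by the authors with DESeq2, are on a log2-like scale and served in 1 alternative.

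Counts were fitted in R 4.3.3 with edgeR 4.0.16 (TMM, quasi-likelihood test, group alone, all 17068 genes, Benjamini-Hochberg, adjusted p under 0.05). The litter in the authors' model is not in the labels. Log2 CPM used a prior count of 2. Alternatives were DESeq2 1.42.0, limma 3.58.1 on the VST values, other scalings, low-count filters, the replicate number as a block, and each library left out. An exact test of 4 against 2 libraries cannot give a two-sided p under 0.133, so none was used. Embryos are separate by their labels, and libraries of a group differed by far more than counting error (chi-square per gene 25.9 or more).

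Symbols, exons and positions came from GENCODE M21 (GRCm38, the assembly of mm10), in which 17047 identifiers were found, and promoter windows from RefSeq (GRCm38.p6). Members and lists were chosen with earlier results of these data known. Named genes are the members, Foxp1, other clock genes past the threshold or with both mutants outside the control range, and the 5 genes nearest to Ciart. Any other was named after its values were seen. Of the other clock genes, 2 are counted but not reported singly here. The fits were tested on simulated data.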

Additional observations from a re-analysis of the deposited data

Results flagged for a closer look

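Among the 4 controls, 4 of all 43 clock genes measured had 1 library apart from the other 3 by Dixon's criterion, which chance meets in about 1 of 20 groups. Noct had 27.0 CPM and Usp2 had 4.16 CPM in control 3, above the other controls. Hlf had 7.01 CPM in control 1 and Sirt1, which encodes a deacetylase, had 61.5 CPM in control 4, also above the others. None of the 4 was a member of the list with Ciart. Control 3 was also the control with the highest sum of ventral telencephalic markers, and the part of these cells was not tested.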

How the results depend on the processing

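Over all alternatives the members other than Ciart that passed the threshold numbered 0, and their median log2 fold change was 0.11 to 0.24. Ciart was at 1.52 on the VST scale, which compresses low counts, and 1.89 to 2.70 with single libraries left out. Ciart minus the median of the other members was 1.34 on the VST scale and 1.68 to 2.52 with libraries left out. The number of genes called was 507 with DESeq2, 0 with the replicate block in edgeR (3027 at an unadjusted p under 0.05), and 2 to 96 with libraries left out: 6, 2 and 96 without controls 1, 2 and 4, and 9 and 3 without Foxp1cKO 1 and 2. The other clock genes called numbered 3 with DESeq2 and 0 to 1 with libraries left out, where the 1 was Rora without control 4. Directions turned for Arntl without Foxp1cKO 1 (-0.086, range -0.086 to 0.24 with libraries left out), for Cry2 without control 4 (-0.062, range -0.062 to 0.097), and for Nr1d2 without control 1 (-0.038) and without Foxp1cKO 2 (-0.16, range -0.16 to 0.14). The median control SD of the members was 0.12 to 0.25 with controls left out. Causes were not tested. With the replicate number as a block, Ciart was at 2.19, and the other clock genes called stayed at 0. The labels give same-numbered libraries nothing in common but the number (correlation of their deviations -0.0975 over both numbers, -0.198 for number 1). With 2 mutants, the deviations of 1 mirror those of the other, so these correlations cannot show whether such libraries shared a litter. Depth limits these values little, since 3 counts are at most 0.0596 CPM in any library, while the mutants number 2.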
